A study of Sus scrofa with 14 samples.

Results

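Lv-piPSC are porcine induced pluripotent stem cells (piPSC) made by lentiviral delivery of reprogramming genes and kept in F medium, which contains FGF2. The genes described here had a high mean level in Lv-piPSC-F and a low mean in every other group of the series. They were chosen by their levels: a mean normalized count of at least 40 over the 2 Lv-piPSC-F samples and a mean below 15 in each of the other 6 groups. A normalized count is a read count per gene divided by a size factor per sample. This rule picked 187 of the 19588 genes in the table (0.955%), and 82 of them had a gene symbol. Because the genes were chosen by these values, their difference from the other groups is a description and was not tested.

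The series held 14 RNA-seq samples, 2 in each of 7 groups. pESCLC-primary were primary outgrowths of blastocysts, which the study made from intact blastocysts or from isolated inner cell mass. pESCLC-F were embryonic stem cell-like cells from these outgrowths, kept in F medium at passage 2. Some of the primary outgrowths were instead moved to FL6i medium at day 8, and cells from there to FLB2i medium at day 18 (pESCLC-FL6i, pESCLC-FLB2i). By the study's methods, the F medium of blastocyst outgrowths held fetal bovine serum and more FGF2 than that of Lv-piPSC, which held a serum replacement. Lv-piPSC-F and pESCLC-F are therefore not fully matched for medium. Epi-piPSC-FLB2i and Epi-piPSC-FL6i came from fetal fibroblasts reprogrammed with episomal plasmids. FLB2i contains FGF2, LIF, BMP4 and inhibitors of GSK3A and TGFB1, and FL6i contains FGF2, LIF and 6 inhibitors (of GSK3A, BMP, TGFB1, MAP2K1 and the kinases MAPK14 and MAPK8). The cells were grown on mouse embryonic fibroblast feeders. Lv-piPSC were sequenced in F medium only, so that the line, the vector and the medium cannot be told apart, and both samples of pESCLC-FLB2i, of pESCLC-FL6i and of Epi-piPSC-FLB2i were passages of 1 line. The 2 Lv-piPSC-F samples are titled ID6_FGF2 and ID6_FGF2.A3 (here the first and the second sample). The second also carries the code M1690-A-3-p46, whereas the first gives no code beyond its title, and the labels do not say whether both are the same line. The study names ID6 as its Lv-piPSC line and describes its duplicates as differing in passage.

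A pluripotent cell is held in its state by a small network of transcription factors around POU5F1, SOX2 and NANOG. Auxiliary factors such as PRDM14, NR0B1 and ESRRB join this network in some pluripotent states and species and not in others. Lentiviral vectors insert into the chromosomes, whereas episomal plasmids are meant to be lost.

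The 2 Lv-piPSC-F samples stood apart from each other for most of the 187 genes. With the same limit of 15, 54 genes were on in both samples, 129 were on in the first sample only and 4 in the second only. Of all 11920 genes with a mean of at least 40 in Lv-piPSC-F, 284 (2.38%) were below 15 in the second sample. Of these 284, 155 were outside the 187. In the first sample 178 of the 11920 (1.49%) were below 15. The second sample had 58878377 reads on genes and the first 17411166, so that the second was 3.38 times as deep, and 1 read was worth 0.348 normalized counts in the second and 1.10 in the first. Of the 129 genes seen in the first sample only, 42 had no read in the second sample and 69 had at most 3. The median log2 ratio of the second to the first sample (on normalized count + 1) was -5.73 over the 187 genes, and it was 0.02 over all 11920 genes with a mean of at least 40 in Lv-piPSC-F. Fibroblast markers also differed between the 2 samples. The summed normalized count of 18 such markers was 20391 in the first sample and 49315 in the second, with 7 and 0 of them below 15. The part of this difference in the results was not tested.

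**Figure D1:**
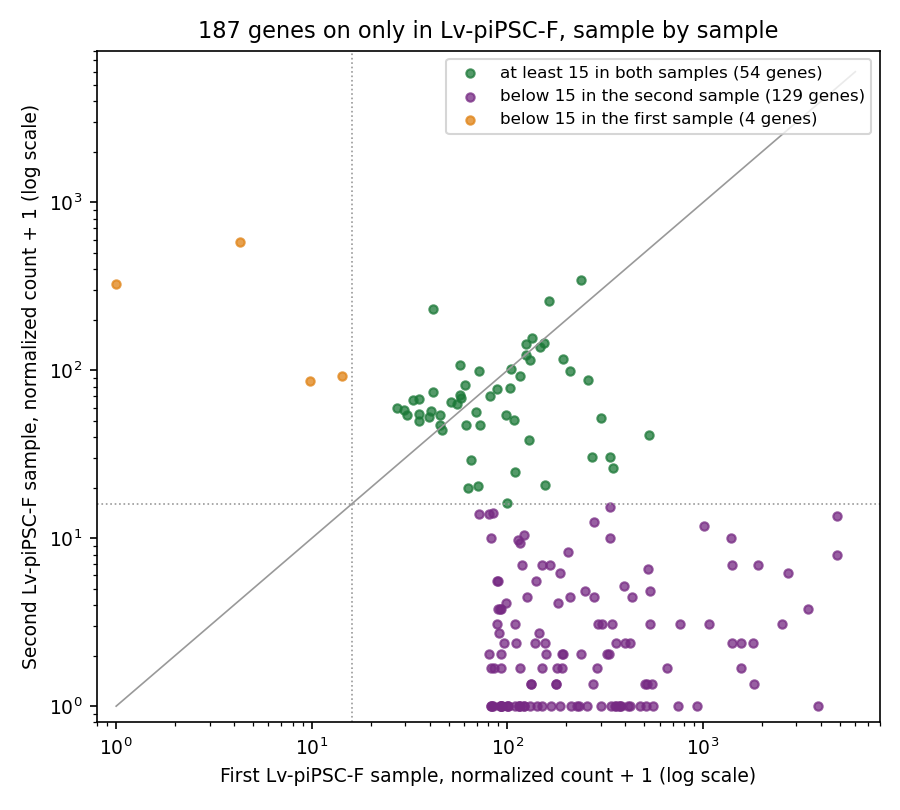
Normalized counts of the 187 genes in the first (x axis) and the second (y axis) Lv-piPSC-F sample, both as count + 1 on log axes, with each point a gene, the dotted lines at the limit of 15 and the grey line at equal values. Of the 54 genes on in both samples 36 lie within 2-fold of the line, 15 below and 3 above that range, and the 129 genes below 15 in the second sample reach 4840 in the first.

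The same rule applied to each other group gave 13 genes for pESCLC-primary, 13 for pESCLC-F, 12 for pESCLC-FLB2i, 81 for pESCLC-FL6i, 13 for Epi-piPSC-FLB2i and 24 for Epi-piPSC-FL6i. All genes of both Epi-piPSC groups were on in both of their samples. In pESCLC-primary 84.6% were, in pESCLC-F 92.3%, in pESCLC-FL6i 30.9%, in Lv-piPSC-F 28.9% and in pESCLC-FLB2i 16.7%. Lv-piPSC-F had the most genes by the rule, and also the most that were on in both samples (54 against 2 to 25).

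**Figure D2:**
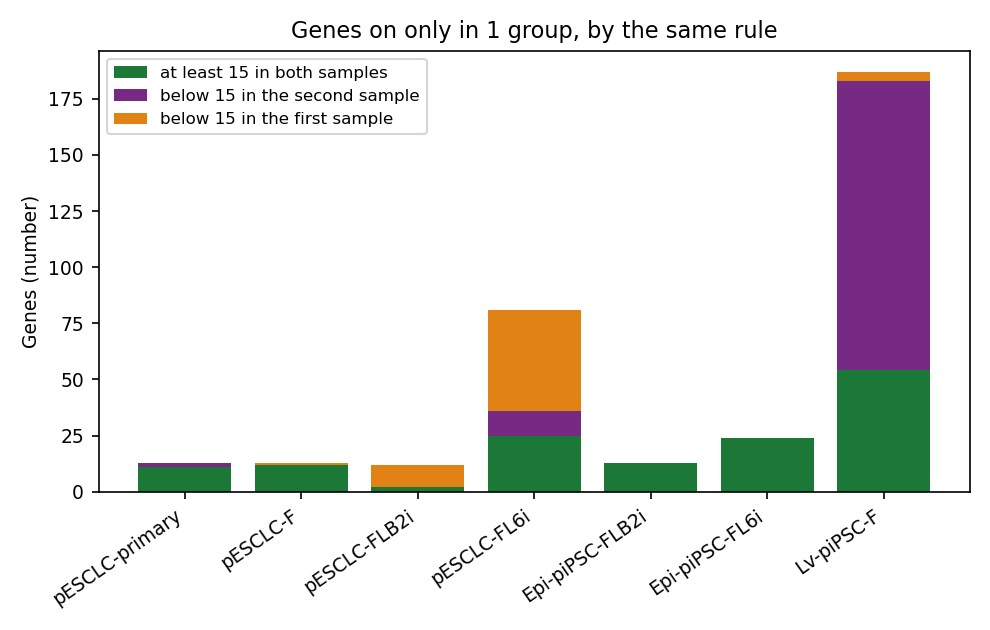
Number of genes (y axis) that met the rule in each of the 7 groups (x axis), with the bars divided by whether the gene had at least 15 normalized counts in both samples of the group. Lv-piPSC-F had 187 genes, 54 of them on in both samples, and pESCLC-FL6i followed with 81, 25 of them on in both.

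Among the 54 genes on in both Lv-piPSC-F samples were regulators known from pluripotent cells. PRDM14, a PR domain zinc finger protein that represses differentiation genes in embryonic stem cells and is needed for primordial germ cells, had 163 and 257 normalized counts in the first and second sample. Its highest value in any of the 12 other samples was 1.84, and 10 of those samples had no read. DPPA5, an RNA-binding protein of pluripotent and germ cells, had 128 and 37.6, against 7.87 in 1 pESCLC-primary sample and at most 1.05 in the other 11. NR0B1 (DAX1), an orphan nuclear receptor active in embryonic stem cells and in the adrenal gland, had 34.1 and 54.0, against at most 6.29 elsewhere. TRIML2, of the tripartite motif family, had 70.4 and 97.5, against 0 to 3.93. For these 4 genes every Lv-piPSC-F value lay above every other value. The choice of genes by these same values favoured such a gap in advance, so that it is no separate result. The 95% Poisson interval of PRDM14 was 138 to 191 in the first sample and 239 to 277 in the second, and these intervals cover counting error only.

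PRDM14 lies at chr4:65273988-65295362 on the plus strand of Sscrofa11.1 and NR0B1 at chrX:26117874-26122951 on the minus strand, by the RefSeq annotation of that build. DPPA5 lies at chr1:52986462-52987596 on the minus strand and TRIML2 at chr17:7310656-7326072 on the plus strand. Per kilobase of exon, PRDM14 had 85.0 normalized counts in the first sample and 134 in the second, DPPA5 215 and 63.4, NR0B1 22.5 and 35.6, and TRIML2 26.6 and 36.9. DPPA5 was thus the highest of the 4 per length in the first sample and PRDM14 in the second. The promoters of PRDM14, NR0B1 and PLET1 are shown because they span the promoter types found among the 54 genes. Each runs from 250 bases before the annotated RefSeq start to 50 bases after it, 5′ to 3′ on the strand of the gene. Capitals mark a match to TATAAA (the TATA box) or ATGCAAAT (the octamer of POU factors) on either strand.
PRDM14 (chr4:65273738-65274037, plus strand): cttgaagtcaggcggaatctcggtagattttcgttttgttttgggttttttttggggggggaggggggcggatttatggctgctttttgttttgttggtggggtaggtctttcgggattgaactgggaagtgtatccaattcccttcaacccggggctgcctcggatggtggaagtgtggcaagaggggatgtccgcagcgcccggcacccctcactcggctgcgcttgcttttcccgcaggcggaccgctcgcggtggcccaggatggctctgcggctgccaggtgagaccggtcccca
NR0B1 (chrX:26122902-26123201, minus strand): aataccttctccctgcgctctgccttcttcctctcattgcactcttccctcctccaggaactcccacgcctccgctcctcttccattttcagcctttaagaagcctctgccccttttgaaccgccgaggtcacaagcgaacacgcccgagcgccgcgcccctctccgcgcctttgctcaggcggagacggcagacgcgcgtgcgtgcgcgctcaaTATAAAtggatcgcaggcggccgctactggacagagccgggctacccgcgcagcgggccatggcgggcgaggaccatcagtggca
PLET1 (chr9:39949660-39949959, minus strand): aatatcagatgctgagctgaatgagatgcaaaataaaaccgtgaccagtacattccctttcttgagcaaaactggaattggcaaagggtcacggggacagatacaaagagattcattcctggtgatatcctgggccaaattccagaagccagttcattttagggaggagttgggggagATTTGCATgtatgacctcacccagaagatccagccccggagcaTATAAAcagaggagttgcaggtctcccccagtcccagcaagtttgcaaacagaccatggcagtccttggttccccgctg
The PRDM14 window held neither motif and had an observed to expected CpG ratio of 0.754. The NR0B1 window was richer in CpG, with a ratio of 1.03, and held TATAAA 35 bases before the start. The PLET1 window had a CpG ratio of 0.226, with TATAAA 29 bases and the octamer 72 bases before the start. PLET1 codes for a surface protein of placental and epithelial progenitors, and had 271 normalized counts in the first sample and 29.6 in the second.

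Among the promoters that could be matched, a lower share was rich in CpGs than among all matched promoters, which include them, and this difference was not tested. A RefSeq gene of the same symbol was found for 72 of the 187 genes, 27 of those on in both samples and 43 of those on in the first only. An observed to expected CpG ratio of at least 0.6 was found in 63.7% of all 13185 matched promoters, in 44.4% of the 27 and in 25.6% of the 43. TATAAA was present in 8.54% of all promoters, in 22.2% of the 27 and in 25.6% of the 43. The octamer ATGCAAAT was in 1.18%, 3.70% and 0%, the E-box CACGTG in 8.82%, 7.41% and 2.33%, and the SOX motif AACAATG in 2.09%, 3.70% and 6.98% of the promoters of the same sets, each searched on both strands. These are shares of letters in a window of 300 bases and were not tested.

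Other transcription factors on in both samples belong to tissues outside the early embryo. TFEC, a relative of MITF found in macrophages, had 123 and 123 normalized counts, against at most 10.5 elsewhere. SIM2, a bHLH-PAS factor of the midline of the nervous system, had 116 and 91.9, and SCX (scleraxis), the bHLH factor of tendon progenitors, had 103 and 101. SIM2 reached 26.2 in 1 pESCLC-FL6i sample and SCX reached 15.7 in a pESCLC-FL6i sample, still below both Lv-piPSC-F samples. All of them were within 2-fold between the Lv-piPSC-F samples.

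Receptors formed a second set, grouped by known role after their values were seen. GALR2, a receptor for the neuropeptide galanin, had 190.3 and 115 normalized counts, and NMUR1, a receptor for neuromedin U, had 130 and 113. PTGER2, the EP2 receptor for prostaglandin E2, had 102 and 76.9 and was low but present in each other sample (4.0 to 19.3). SCTR, the secretin receptor, had 345 in the first sample and 25.1 in the second, against a highest value of 15.7 elsewhere. GALR2 and NMUR1 had at most 7.99 and 8.74 elsewhere. For all 4 receptors the groups did not overlap, but the choice of genes by these same values favoured this in advance.

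Genes of muscle and of the testis were also found. MYL11, the regulatory myosin light chain of fast skeletal muscle, had 123 and 142 normalized counts, and SMYD1, a histone methyltransferase of heart and skeletal muscle, had 31.9 and 65.8. LDHC, the lactate dehydrogenase of testis, had 34.1 and 66.5, and TDRD10, a Tudor domain protein, had 57.2 and 67.2. LDHC and SMYD1 had at most 4.0 and 3.86 in the 12 other samples. TDRD10 adjoins another gene of the group on chromosome 4, SHE, an SH2 domain adaptor on the opposite strand, with which it overlaps at the 5′ end. SHE had 208 and 97.8, against 0 to 19.3 elsewhere.

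Among enzymes and transporters, GSTO2, a glutathione transferase, had 146 and 138 normalized counts, and SLC12A8, a member of the cation-chloride cotransporter family, had 45.1 and 43.2. Both were nearly equal in the 2 samples. GNMT, the glycine N-methyltransferase of liver, had 332 and 29.6, and TMEM45B, a membrane protein, had 155 and 19.8. BPIFB1, a secreted protein of airway epithelium, had 256 and 86.0. Of the 54 genes, 36 were within 2-fold between the 2 samples, 15 were lower and 3 higher in the second sample by more than that. The highest ratios among named genes were those of SNORA25 (log2 1.13), SMYD1 (1.02) and DNAH14 (0.97), an axonemal dynein heavy chain. SNORA25 is a small nucleolar RNA, as are SNORA44, SNORD79 and SNORD93 of the same set, which had 68.2 and 55.4, 132 and 156, and 53.9 and 62.0. The libraries were of polyadenylated RNA, and whether the reads on these genes came from the small RNAs themselves was not tested.

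**Figure D3:**
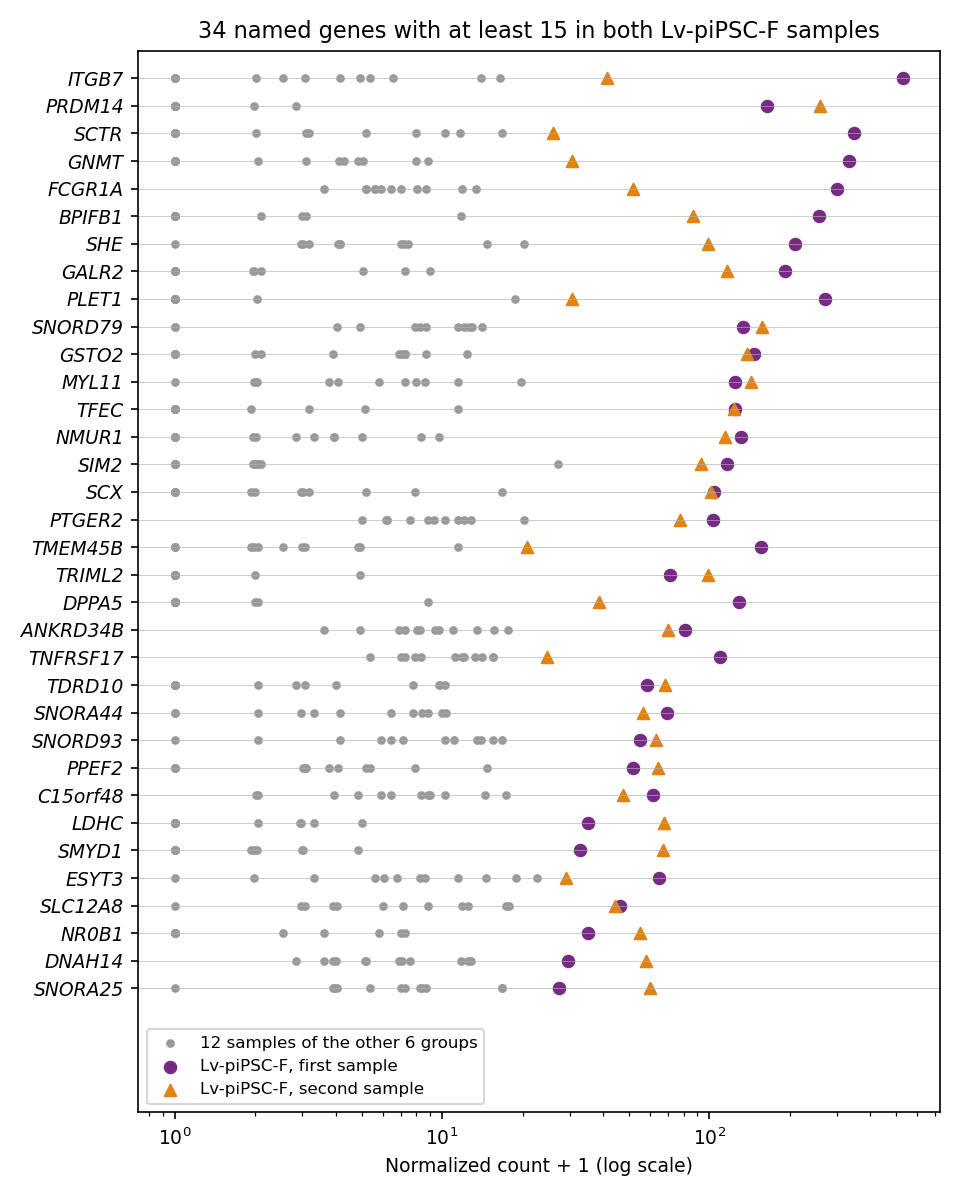
Normalized count + 1 (x axis, log scale) of the 34 named genes with at least 15 in both Lv-piPSC-F samples, 1 gene a row in order of the Lv-piPSC-F mean, with the first sample as a circle, the second as a triangle and the 12 other samples as grey points. PRDM14 and TRIML2 stand clear of all grey points in both samples, whereas ITGB7, SCTR, GNMT, PLET1 and TMEM45B fell by log2 2.9 or more from the first to the second sample.

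Single samples draw a narrower circle than group means. There were 20 genes with at least 40 in both Lv-piPSC-F samples and below 15 in each of the 12 others, 12 of them with a symbol: PRDM14, FCGR1A, BPIFB1, GALR2, SNORD79, GSTO2, TFEC, NMUR1, TRIML2, TDRD10, SNORA44 and PPEF2, a protein phosphatase of photoreceptors. With means below 5 in each other group, 8 of the 54 were left, of which PRDM14, TRIML2, DPPA5, LDHC and SMYD1 had a symbol. Across all 187 genes, 41 reached 15 in at least 1 of the 12 other samples, with 26.2 as the highest value, and 21 had no read in any of them. The genes closest above the limit of 40 with a symbol were TOMT (mean 40.7), RBM44 (41.6) and SNORA25 (42.6), and those closest below were DYNLT5 (39.9), TSSK3 (39.1) and CYP11A1 (38.1). DYNLT5 had 37.4 and 42.5 in the 2 samples and was nearer to equal than TOMT, which had 81.4 and 0.

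The 129 genes seen in the first sample only included the highest values of all. ENSSSCG00000031756 had 4840 normalized counts in the first sample and 12.5 in the second, ENSSSCG00000028802 had 4826 and 6.96, ENSSSCG00000036335 had 3849 and 0, and ENSSSCG00000007178 had 3428 and 2.79. None of these 4 has a symbol in the tables used, as is true of 64.3% of the 129 genes, 37.0% of the 54 and 27.8% of all genes. The named gene with the highest value was RAX2, a homeobox gene of the retina, with 1899 in the first sample and 5.92 in the second. It had 4.19 to 12 in the other samples, so that the second Lv-piPSC-F sample fell inside their range. DENND1C, a regulator of RAB GTPases, followed with 1405 and 5.92, and CCDC73, a coiled-coil protein, with 1381 and 9.05. Of the 12 highest genes overall only RAX2 and DENND1C had a symbol, and the others were, beside the 4 above, ENSSSCG00000031844, ENSSSCG00000035907, ENSSSCG00000034799, ENSSSCG00000037567, ENSSSCG00000035013 and ENSSSCG00000037660, at 1554 to 2729.7 in the first sample. The range of the 129 genes in the first sample was 70.4 to 4840, with a median of 189, and their range in the second was 0 to 14.3, with a median of 1.04.

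Some genes of the set are known from blood and immune cells, and were grouped by this role after their values were seen. CD37, a tetraspanin of lymphocytes, had 764 normalized counts in the first sample and 2.09 in the second, CXCR3, a chemokine receptor of T cells, 533 and 3.83, and IFNG, the cytokine interferon gamma, 509 and 0. No other sample had a read of IFNG, and against 463 reads in the first Lv-piPSC-F sample the second had none. In the second sample 3 reads are worth 1.04 normalized counts. CD68, a lysosomal protein of macrophages, had 88.0 and 4.53. ITGB7, the integrin beta 7 chain of lymphocytes, and FCGR1A, an Fc receptor of macrophages, were on in both samples, at 530.3 and 40.4 and at 298 and 50.8, and TNFRSF17 (BCMA), a receptor of plasma cells, had 109 and 23.7. Of the defining markers of blood cells, PTPRC (CD45) had 7.70 in the first sample and 44.6 in the second, CD4 had 4.40 and 0.348, LYZ had no read in either, and CSF1R, the macrophage growth factor receptor, had 266 and 0.696. The 14 markers of the immune and blood cell list summed to 597 and 257 normalized counts, within the range of the other 12 samples (227 to 720), and the part of such cells in these values was not tested.

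Other genes of the set are known from several tissues. SLC24A5, a cation exchanger of pigment cells, had 925 normalized counts in the first sample and 0 in the second, GPR182, a receptor of endothelium, had 743 and 0, and CFAP73, a protein of cilia, had 300.4 and 0. These values and those of IFNG and ssc-mir-9840 (376 and 0) gave the lowest ratios among named genes, at log2 -8.24 to -9.86. Some genes are known from muscle, a role by which they were grouped after their values were seen. These were CKM, the muscle creatine kinase (112 and 8.70), TMOD4, a tropomodulin of skeletal muscle (249 and 3.83), and MYL5, a myosin light chain (141 and 0). Of 18 mesoderm markers in the table, 12 were below 15 in the first sample and 13 in the second. SPO11, the enzyme that makes the DNA breaks of meiosis, had 209 and 3.48. NUP210L, a nucleoporin of testis, had 523 and 5.57. Transcription factors of the set were RAX2, NKX6-2 of the neural tube (189 and 0.696), NR1I3, the xenobiotic receptor CAR (431 and 3.48), and ZNF34 (110 and 1.39).

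Only 4 genes were on in the second sample and below 15 in the first. CYP1A2, a liver cytochrome P450 that metabolises caffeine, had 579 normalized counts in the second sample and 3.30 in the first, the latter from 3 reads. STAT4, the transcription factor that relays interleukin 12 signals, had 91.9 and 13.2. The others were ENSSSCG00000035389, with 323 and 0, and ENSSSCG00000036364, with 85.3 and 8.80. With the second sample alone in place of the mean, 57 genes met the rule, and with the first sample alone 248 did.

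Genes on in the first sample lay beside genes of the opposite strand more often than other genes did. An opposite-strand RefSeq gene overlapped or lay within 1000 bases of 45.7% of the genes outside the 187, of 55.6% of the 27 matched genes on in both samples and of 65.1% of the 43 on in the first only. The partner had a mean of at least 1000 normalized counts in the 12 other samples for 7.73%, 14.8% and 18.6% of these. The distance and the level were chosen after the values were seen, and these shares were not tested. SLC24A5 overlaps MYEF2, which had 3230.4 normalized counts in the first sample and 2844 in the second, while SLC24A5 itself had 925 and 0. CCDC73 (1381 and 9.05) lies beside EIF3M, a translation initiation factor with 5761 and 7226, and WDR38 (210.1 and 0) beside RPL35, a ribosomal protein gene with 11749.6 and 14694. Over the 21 genes of the first sample whose partner had a value, the partner differed by more than 2-fold between the 2 samples for 2. The median level of these genes was 32.9% of that of their partner in the first sample and 0.159% in the second.

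The shares were also counted over all matched genes that were below 15 in the 6 other groups. In the first Lv-piPSC-F sample, 36 of 870 such genes with no opposite-strand neighbour had at least 40 normalized counts (4.14%), as did 39 of 348 with a neighbour below 1000 or without a value (11.2%) and 15 of 84 with a neighbour of at least 1000 (17.9%). In the second sample the shares were 1.15%, 2.30% and 4.76%. In the 12 other samples, each set against the groups other than its own, the share with a strong neighbour was 0% to 3.08%. The second pESCLC-FL6i sample also had many genes of its own, with 4.62% of those without a neighbour, 7.65% of those with a neighbour below 1000 or without a value and 2.94% of those with a strong one. The libraries came from a stranded kit and were counted at the default strand setting, and a difference in strand between libraries was not tested. Values of genes that overlap another gene on the opposite strand are therefore uncertain. Among them are SHE, TDRD10, SIM2, SCX, SCTR, GNMT, SLC24A5, CD37, GPR182, MYL5 and ssc-mir-9840. The last overlaps TBC1D1, which had 5939 normalized counts in the first Lv-piPSC-F sample and 5095 in the second. PRDM14, DPPA5, TRIML2, TFEC, GALR2, IFNG, CXCR3 and SPO11 had no opposite-strand neighbour within 1000 bases. NR0B1 and NMUR1 had such a neighbour within 1000 bases, and FCGR1A and PPEF2 overlapped one, in each case without a value.

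**Figure D4:**
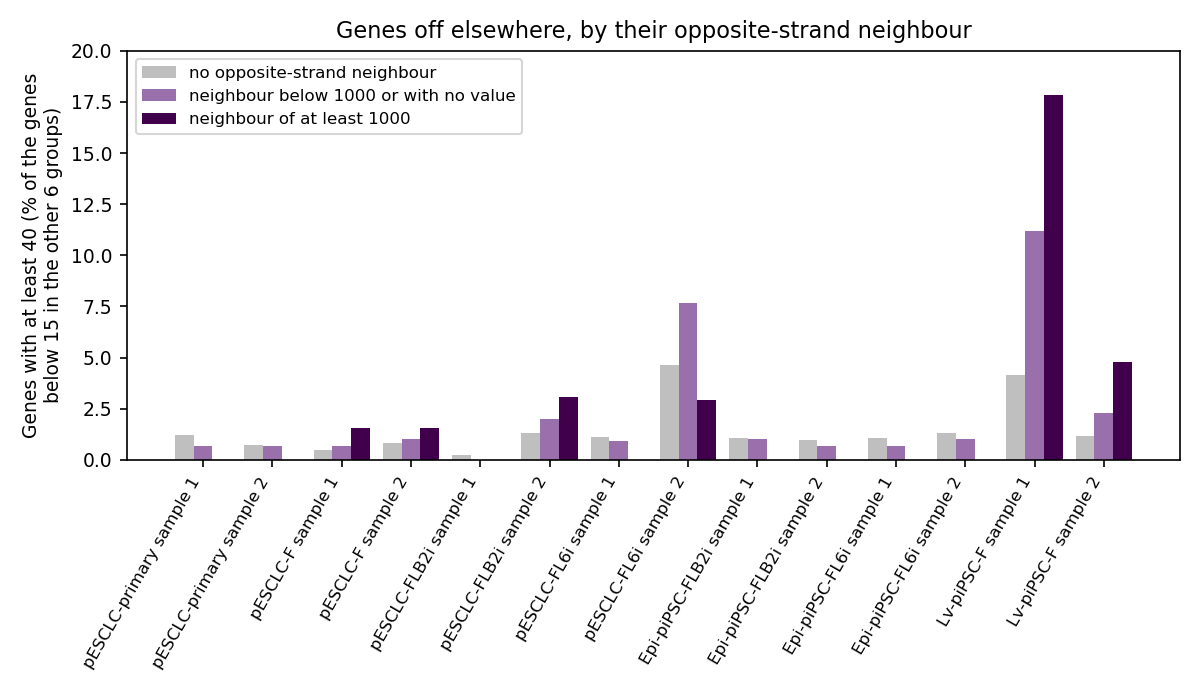
Share of genes with at least 40 normalized counts in a sample (y axis, % of the genes below 15 in the 6 groups other than that of the sample) for the 14 samples (x axis), by whether the gene had no opposite-strand neighbour, a neighbour below 1000 normalized counts or without a value, or a neighbour of at least 1000. The first Lv-piPSC-F sample had the highest shares for genes with a neighbour, at 11.2% and 17.9%, against 2.30% and 4.76% in the second.

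The matched genes were spread over the chromosomes. Chromosome 4 held 11 of them, 1.48% of its 742 matched genes, 5 on in both samples and 6 in the first only, and PRDM14, SHE, TDRD10, SCX and FCGR1A were among them. Chromosome 15 had 0.899% and chromosome 17 0.95%, and the other autosomes 0.248% to 0.851%. Apart from TDRD10 and SHE no such gene adjoined another. Genes next to the 27 matched genes on in both samples were tested between Lv-piPSC-F and pESCLC-F with limma on log2(normalized count + 1), and called where the adjusted p (Benjamini-Hochberg) did not exceed 0.05 and the fold was 3 or more. Of 47 such neighbours 7 were higher and 8 lower (31.9% called, against 22.7% of all 14239 genes tested). Next to the 43 matched genes on in the first sample only, 2 of 71 were higher and 10 lower (16.9%). Against Epi-piPSC-FL6i, 12.5% of 48 and 8.45% of 71 neighbours were called, against 12.8% of all 13988 genes tested.

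The rule kept the means of the 187 genes below 15 in the other groups, so that most could not be tested there. Between Epi-piPSC and pESCLC in the 2 inhibitor media, 30 of the 187 passed the filter of 10 normalized counts in at least 2 samples, and 4 of these were called by limma, 3 higher and 1 lower in Epi-piPSC, near the share of all 15248 genes tested (14.3%). STAT4 had 20.7, 8.30, 4.83 and 12 normalized counts in the 4 Epi-piPSC samples and 3.08, 1.97, 0 and 0 in the 4 pESCLC samples, with no overlap (log2 fold change 2.57 ± 0.50 SE, adjusted p = 0.012). ITGB7 (2.71 ± 0.51, adjusted p = 0.0107) and SNORD93 (2.11 ± 0.43, adjusted p = 0.014) were also higher. WDR93, a gene of the WD repeat family, was lower (-2.03 ± 0.50, adjusted p = 0.0257), with 10.5 to 18.3 in pESCLC and 0 to 8.30 in Epi-piPSC. STAT4, ITGB7 and WDR93 reached 10 only among the cells in which they were higher, so that the filter favoured their calls. These values rest on few reads, and with a pseudocount of 5 none of the 4 was called. With 1 sample left out at a time, STAT4 kept its call throughout. ITGB7 lost it without the second Epi-piPSC-FLB2i sample, SNORD93 without the first Epi-piPSC-FLB2i sample or either Epi-piPSC-FL6i sample, and WDR93 without any of the 4 FLB2i samples or the second Epi-piPSC-FL6i sample.

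Between Epi-piPSC-FL6i and Epi-piPSC-FLB2i, 16 of the 187 passed the filter and 3 were called, again near the share of all 14252 genes tested (19.7%). ITGB7 was higher in FL6i, with 15.4 and 13.0 against 2.07 and 5.53 (log2 fold change 1.76 ± 0.54 SE, adjusted p = 0.0225 by limma and 0.183 by DESeq2). ENSSSCG00000036364 was higher too (2.96 ± 0.66, adjusted p = 0.00537), with 10.6 and 15 against 2.07 and 0. SDS, the serine dehydratase of liver, was lower, with 0 and 3.00 against 15.5 and 11.07 (-2.82 ± 0.72, adjusted p = 0.01 by limma and 0.0711 by DESeq2). All 3 passed the filter only through the group in which they were higher, so that the filter favoured these calls and their p-values are descriptive. With a pseudocount of 5 these calls were also lost, and ITGB7 was not called without the first Epi-piPSC-FLB2i sample.

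Of the 187 genes, 5 were on 1 of 16 lists of pathway and cell type genes, which together held 305 genes of the table. PRDM14 and DPPA5 were on the list of pluripotency genes, SPO11 on that of germ cell and meiosis genes, CD68 on that of immune and blood cell markers and IFNG on that of trophectoderm markers, as the early trophoblast of the pig makes interferon gamma. The other 12 lists, among them those of HOX, imprinted, WNT, FGF and fibroblast genes, held none. The remaining genes of the lists show what else differed around these 5.

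Of the other 20 pluripotency genes in the table, 19 were tested against pESCLC-F, of which 5 rose and 5 fell in Lv-piPSC-F, beside 22.7% called of all genes tested. Their median log2 fold change was 0.06, and that of all genes was -0.02. Against Epi-piPSC-FL6i 5 of 17 rose and 2 fell, beside 12.8% called of all genes, with a median of 0.14 and of 0.03 over all genes. NANOG, a core factor of the network, had 418 and 847 normalized counts in Lv-piPSC-F, 240 and 343 in pESCLC-F, and 0.965 and 0.999 in Epi-piPSC-FL6i (log2 fold change against the last 8.23 ± 0.54 SE, adjusted p = 0.00695). ESRRB, an orphan nuclear receptor of naive pluripotency, had 334 and 138, above pESCLC-F (10.5 and 11.13, adjusted p = 0.0102) and below Epi-piPSC-FL6i (2819 and 3413, adjusted p = 0.0128). FGF4, a growth factor of the epiblast, had 24.2 and 22.6, with no read in pESCLC-F and 0 and 0.999 in Epi-piPSC-FL6i. On the log2 scale TBX3 fell by 6.08 ± 0.47 against pESCLC-F and NODAL fell by 5.93 ± 0.91. SFRP2, a secreted WNT antagonist, rose by 8.47 ± 0.75. Without the first Lv-piPSC-F sample, 3 of 17 rose and 6 fell against pESCLC-F, and 2 of 14 rose and 4 fell against Epi-piPSC-FL6i.

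Of the other germ cell and meiosis genes, only 5 of 24 passed the filter. Against pESCLC-F, 3 of them rose and 1 fell, beside 22.7% called of all genes tested. Against Epi-piPSC-FL6i 1 rose and 1 fell, beside 12.8%. DND1, an RNA-binding protein of primordial germ cells, was higher in both comparisons, with 239 and 109 normalized counts against 28.3 and 18.2 in pESCLC-F (2.78 ± 0.59, adjusted p = 0.0245) and 15.4 and 22.0 in Epi-piPSC-FL6i (3.06 ± 0.55, adjusted p = 0.0249). TDRD1 and TDRD12, Tudor proteins of the piRNA pathway, were higher than in pESCLC-F. SYCP2, a protein of the synaptonemal complex of meiosis, fell in both comparisons, from 750 and 1169 in pESCLC-F and 191 and 77.9 in Epi-piPSC-FL6i to 15.4 and 6.61. STRA8 and DMC1, which act early in meiosis together with SPO11, had at most 1.10 in Lv-piPSC-F.

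Of all genes tested, 22.7% were called against pESCLC-F and 12.8% against Epi-piPSC-FL6i, and the counts of the immune list lie near these shares. Of the immune and blood cell markers other than CD68, 2 of 8 tested were called against pESCLC-F, CDH5 and KLF1, both lower. Against Epi-piPSC-FL6i, 1 of 7 was called, HBB, with 0 and 0.348 normalized counts against 278 and 323. Of the trophectoderm markers other than IFNG, 1 of 10 rose and 5 fell against pESCLC-F, and 4 of 11 rose against Epi-piPSC-FL6i. TFAP2C, a factor of trophoblast and germ cells, had 212 and 910, against 0 and 2.02 in pESCLC-F. KRT18 and KRT8, keratins of simple epithelia, fell against pESCLC-F and rose against Epi-piPSC-FL6i, with KRT18 at 28622 and 31265, against 142399 and 144488 and against 1038 and 1019. Of the fibroblast markers, 3 of 16 rose and 2 fell against pESCLC-F, with a median log2 fold change of -0.51. Without the first Lv-piPSC-F sample 9 rose and 2 fell, with a median of 1.78. The corresponding counts against Epi-piPSC-FL6i were 1 and 2 of 18, and 3 and 2 without that sample. The calls against pESCLC-F and Epi-piPSC-FL6i rest on 2 samples per group, and when 1 sample of either of these groups was left out, limma called at most 13 genes in all.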

How the data were processed

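Polyadenylated RNA was sequenced from 14 samples. Per the labels and the methods of the study, stranded libraries with reads of 50 bp in pairs were aligned to Sscrofa11.1 with TopHat 2.1.0 and counted on genes with HTSeq at default parameters. The authors deposited signal values, which are counts normalized with DESeq2, one value per gene and sample, set over all samples, with no pooling of replicates. In every sample each value divided by the value of 1 read gave a whole number (100%, within 1e-06), and the recovered reads numbered 6193659 to 58878377 per sample. Which annotation release was used is not given in the sources used here. Symbols came from a table that matched 14151 of 19588 identifiers, and positions and sequence from RefSeq on the same build.

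The genes and lists were chosen with earlier results of these data known. Tests used limma 3.58.1 (R 4.3.3) on log2(normalized count + 1), with its prior variance allowed to follow the mean. Genes entered a fit where 2 or more of its samples had 10 or more normalized counts. The study used DESeq2, which needs counts, so that edgeR 4.0.16 and DESeq2 1.42.0 were run on the recovered reads as alternatives (edgeR called 2188, 2856, 3092 and 1711 genes in the comparisons of Epi-piPSC with pESCLC, of FL6i with FLB2i in Epi-piPSC, and of Lv-piPSC-F with pESCLC-F and with Epi-piPSC-FL6i, and DESeq2 2525, 2658, 3430 and 2220). The tests were tried on simulated data. Where the duplicates of a group were passages of 1 line, p-values measure the spread between these samples only. Named genes were the 12 highest in Lv-piPSC-F, the 5 highest and 5 lowest ratios of the second to the first sample, genes on a list, called, adjacent or at the limits, and up to 4 called genes of a list, and the rest were named after their values were seen. Genes with near-identical copies, and genes that overlap on opposite strands, are uncertain.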

Additional observations from a re-analysis of the deposited data

How the results depend on the processing

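The number of genes that met the rule moved with its limits. It was 100 with a limit of 80 in Lv-piPSC-F and 315 with one of 20, 92 with a limit of 5 in the other groups and 327 with one of 30, and 20 with the limits on every single sample. TMM factors gave 186. With 1 sample left out at a time it ranged from 57 (without the first Lv-piPSC-F sample) to 248 (without the second), and leaving out any of the 12 other samples gave 177 to 210. The 54 genes on in both samples became 8 with the limit of 5 and 138 with that of 30. The median log2 ratio of the second to the first sample was -6.52 with a pseudocount of 0.1 and -4.21 with one of 5. The share of genes beside a strong opposite-strand gene that reached 40 in the first sample, 17.9%, was 14.5% for overlapping genes only, 18.2% with a partner level of 300 and 14.3% with 3000, all chosen after the data were seen.

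A log2 fold change of at least 3 left 825 calls between Epi-piPSC and pESCLC, 1101 between the Epi-piPSC media, and 1634 and 806 of Lv-piPSC-F against pESCLC-F and Epi-piPSC-FL6i. With 1 sample left out the counts were 1290 to 3032, 2159 to 2596, 0 to 3661 and 0 to 2813. In the first of these comparisons, 1291 and 1384 genes were called without either Epi-piPSC-FLB2i sample and 1361 and 1290 without either Epi-piPSC-FL6i sample. Without pESCLC-F replicate 1 or 2, limma called 0 and 13 genes (4199 had an unadjusted p below 0.05 without replicate 1), and without Epi-piPSC-FL6i replicate 1 or 2 it called none against Epi-piPSC-FL6i (2585 and 2609 at an unadjusted p below 0.05). The lone sample was then assumed to vary like the 2 Lv-piPSC-F samples, which alone gave the spread. Without the second Lv-piPSC-F sample 2813 genes were called in that comparison. Deviations of samples with the same replicate number had correlations of -0.08 to 0.36, under 0.1 for all pairs of groups but 1. The exception was pESCLC-FLB2i with pESCLC-FL6i (0.36), where replicate 1 was the earlier passage in both groups. The main fit of Epi-piPSC against pESCLC holds both groups and did not pair their samples. A replicate block gave 2220, 2832, 3046 and 1522 calls. Over 39 named genes and comparisons none changed direction under 484 alternatives, and 105 of these lost the call, 66 of them with a sample left out and 15 at the larger fold.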
